A study of Homo sapiens with 6 samples.

Results

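The genes described here are LCN2, SLPI, PI3, SAA1, SAA2, PIGR, LTF and DEFB1, which encode secreted or secretion-linked proteins of epithelial defence and of the acute-phase response. They were chosen by name, with earlier results of these data known, and all 8 were found once among the 19973 genes of the deposited table. RNA was sequenced from OVCAR3, a widely used human cell line derived from ovarian carcinoma, which had been transfected with shNC, a control hairpin (labelled genotype WT), or with shNUF2, a hairpin against NUF2 (labelled NUF2 knockdown), and then selected with puromycin into stable lines. Each group had 3 libraries made with a stranded mRNA kit. One hairpin stands for the knockdown, and the labels do not say whether the libraries of a group came from separate cultures, so that p-values measure the spread between these libraries, which may be technical.

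Epithelia release a set of small proteins that protect mucosal surfaces. SLPI and PI3 (elafin) are inhibitors of neutrophil serine proteases built from the whey acidic protein (WAP) four-disulfide core. LCN2 and LTF withhold iron from bacteria, LCN2 by binding siderophores and LTF by binding iron itself, DEFB1 is a beta-defensin, PIGR carries polymeric immunoglobulins across epithelial cells and is shed as secretory component, and SAA1 and SAA2 are serum amyloid A apolipoproteins of the acute phase. Several of these genes are known to respond to interleukin 1 and interleukin 6 through NF-kB, C/EBP and STAT factors, and SLPI and LCN2 are often abundant in ovarian carcinoma.

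Total counts ranged from 13057534 to 16995452 reads per library. NUF2, the targeted gene, had 903, 1096 and 1092 reads in the controls against 281, 290 and 384 after knockdown (log2 fold change -1.51, standard error 0.08, adjusted p = 2.17e-15, edgeR's quasi-likelihood test). Of the 11 epithelial ovarian markers examined, KRT7 had the most reads in the controls (8311 to 12768 per library) and KRT8 the most after knockdown (8963 to 10296), whereas WT1 had at most 7 reads and KRT19 at most 8 in any library. These markers differed in direction. Of the 11, 9 were tested, and 5 were higher and 3 lower at an adjusted p under 0.05 (33.9% and 33.8% of all genes tested). MSLN and MUC16 were lower (log2 fold change -0.75 each), and KRT8 (1.04) and ESR1 (1.17) were higher (all edgeR). CDH1 had between 9 and 33 reads per library. The number of genes with at least 1 read ranged from 14582 to 14691 in the shNC libraries and from 15435 to 15536 in the shNUF2 libraries. Of the hepatocyte markers, ALB, APOA1 and TTR had 0 reads in every library, and the 7 hepatocyte markers summed to between 0.407 and 0.984 CPM (reads scaled to library size) with shNC and between 0.199 and 0.999 CPM with shNUF2. The 13 leukocyte markers summed to between 2.38 and 3.87 CPM with shNC and between 7.38 and 8.60 CPM with shNUF2. MPO, FCGR3B and CXCR2 had 0 reads in every library. PRTN3 had the highest CPM of these markers, 2.15 with shNC and 5.63 with shNUF2 on average. PTPRC had 0, 1 and 0 reads in the controls against 6, 11 and 6 after knockdown, and CD14 0, 3 and 1 against 10, 6 and 11. SPI1 went the other way, with 2, 2 and 7 reads against 2, 0 and 3, as did CD68 and CTSG, with at most 2 reads in any library. The part of the higher leukocyte sum in the results below was not tested. The 7 fibroblast markers summed to between 84.3 and 90.9 CPM with shNC and between 70.9 and 79.4 CPM with shNUF2, with COL1A2 and LUM at no more than 2 reads in any library. Single fibroblast markers differed in direction, since COL1A1, the most abundant, was lower (log2 fold change -0.39, adjusted p = 1.23e-06), while DCN was higher (1.22, adjusted p = 7.00e-06, both edgeR). FAP had 5, 5 and 6 reads in the controls against 38, 50 and 30 after knockdown, and passed the filter on low counts only through the latter. COL3A1 had 1, 0 and 2 reads in the controls against 15, 15 and 5 after knockdown and was not tested. The part of these markers in the results below was not tested either.

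PI3 and SLPI lie 75.7 kb apart on chromosome 20, and SAA1 and SAA2 lie 17.6 kb apart on chromosome 11. The serum amyloid pair is shown first because shared sequence decides whether reads of one gene can be counted on the other. The stretches below were read from transcripts of GENCODE release 29 on GRCh38, 5′ to 3′ on the strand of each gene, with the bases that differ between the pair in capitals. The last coding exon of SAA1 (chr11:18269717-18269852, plus strand) and that of SAA2 (chr11:18245380-18245515, minus strand) hold 9 of the 11 differences between the 2 coding sequences.
SAA1: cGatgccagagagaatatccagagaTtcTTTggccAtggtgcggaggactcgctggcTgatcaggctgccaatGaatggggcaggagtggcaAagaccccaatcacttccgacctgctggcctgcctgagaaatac
SAA2: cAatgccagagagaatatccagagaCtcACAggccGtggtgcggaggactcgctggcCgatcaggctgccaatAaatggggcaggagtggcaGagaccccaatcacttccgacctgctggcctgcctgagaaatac
Over their 366 coding bases the serum amyloid genes were 97.0% identical, and 186 bases in a row were shared. A read that falls inside that run has no base by which the pair can be told apart.

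Expression of these 8 genes was dominated by SLPI and PI3, which together made up between 97.7% and 98.5% of the summed FPKM (reads per gene length and library total, on the authors' scale) in every library. With shNC, the mean level was 326 FPKM for SLPI, 19.2 for PI3, 3.30 for DEFB1, 1.54 for LCN2, 1.53 for SAA1, 0.238 for PIGR, 0.0193 for SAA2 and 0.00592 for LTF. The libraries of DEFB1 overlapped those of LCN2 on this scale, those of LCN2 overlapped those of SAA1, and SAA2 overlapped LTF, so that the order within these pairs is not separated by the spread. With shNUF2, the mean level was 295 FPKM for SLPI, 110 for PI3, 3.07 for DEFB1, 3.01 for SAA1, 1.31 for LCN2, 0.440 for PIGR, 0.231 for SAA2 and 0.0828 for LTF, and only DEFB1 and SAA1 overlapped as neighbours in that order. SAA1 thus stood above LCN2 in every shNUF2 library, which was not so with shNC.

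**Figure D1:**
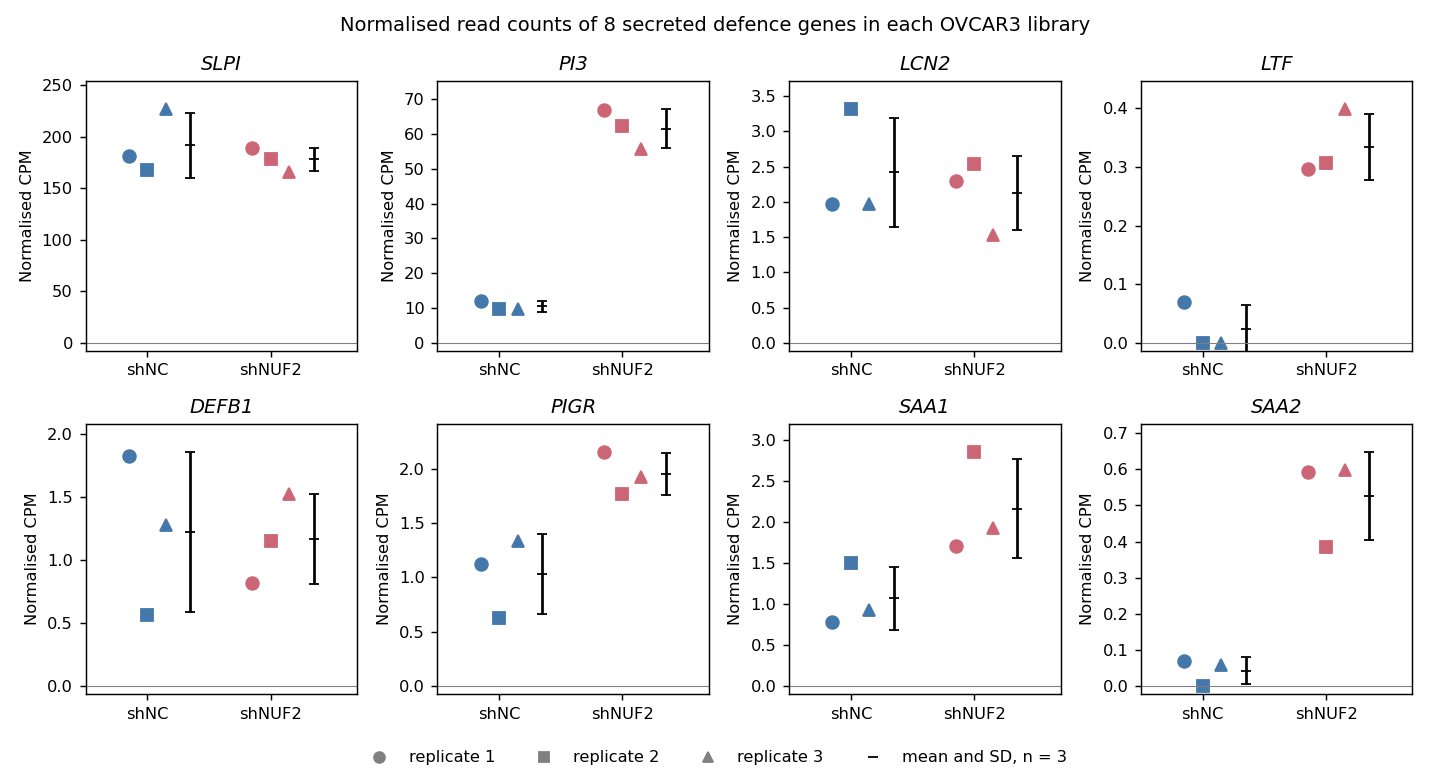
Normalised read count (CPM, the count scaled by library size, vertical axes from 0, a separate scale for each gene) in the 3 shNC (blue) and 3 shNUF2 (red) libraries, with the mean and SD in black. The shNUF2 libraries lie above all shNC libraries for PI3, PIGR, SAA1, SAA2 and LTF, and the groups overlap for SLPI, LCN2 and DEFB1.

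PI3 was the member with the clearest difference. A gene was called a differentially expressed gene (DEG) when its log2 fold change was beyond 1 and its unadjusted p was under 0.05, and by a second rule when its adjusted p was under 0.05 at any size. Of the 8 members, 6 had enough reads to be tested, and PI3 alone was called a DEG, in the direction of higher expression, where 9.41% of the 12874 genes tested were called higher and 4.16% lower. By adjusted p, 3 of the 6 were higher (PI3, SAA1 and PIGR) and 0 were lower, against 33.9% of all genes tested called higher and 33.8% called lower. The shNUF2 libraries lay above all shNC libraries for the same 3 of the 6 tested members, as for 35.2% of all genes tested, and in 0 of the 6 did they lie below, as for 35.4% of all genes tested. Of the 3, PIGR passed the filter on low counts only with the help of the shNUF2 libraries, where it is higher. A share of 3 in 6 rests on few genes beside these backgrounds, and is not a result about the members as a group.

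PI3 (ENSG00000124102, chromosome 20 from 45174902 to 45176544, plus strand) had 173, 154 and 165 reads in control replicates 1, 2 and 3 against 901, 810 and 837 in knockdown replicates 1, 2 and 3. All shNUF2 libraries were high and all shNC libraries low, with no overlap. The normalised read count was 10.5 ± 1.47 CPM with shNC (SD, n = 3) and 61.6 ± 5.63 CPM with shNUF2 (SD, n = 3). This is a 5.91-fold difference (approximate 95% interval 5.18 to 6.74), or 2.56 on the log2 scale (standard error 0.10, adjusted p = 3.51e-18, edgeR's quasi-likelihood test). An exact permutation test of a single gene with 3 libraries against 3 cannot go below p = 0.10, the value that PI3 gave (two-sided). In these bulk libraries, more cells that transcribe a gene and more RNA per cell cannot be told apart, here or for any gene below.

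SLPI (ENSG00000124107, chromosome 20 from 45252239 to 45254564, minus strand) had 2574, 2676 and 3907 reads in the controls against 2553, 2326 and 2501 after knockdown. The groups overlapped, and shNC replicate 3 stood above the other 5 libraries. After normalisation SLPI had 192 ± 31.3 CPM with shNC (SD, n = 3) and 178 ± 11.6 CPM with shNUF2 (SD, n = 3), and its log2 fold change of -0.11 did not pass the test (approximate 95% interval -0.25 to 0.03, adjusted p = 0.181, edgeR's quasi-likelihood test). In that fit, a change of more than 1.02-fold upward or to less than 0.841 of the control level lies outside the interval. The p-value depended on the method, since DESeq2 gave a log2 fold change of -0.10 with an adjusted p of 0.547. SLPI in shNC replicate 3 was 1.30 times the mean of the other 2 shNC libraries, a ratio reached by 16 of the 4795 genes tested with a mean of at least 50 CPM (0.334%). The value depended on this library. Without shNC replicate 3 the log2 fold change was 0.03 (adjusted p = 0.690, edgeR), and without shNC replicate 2 it was -0.20 (adjusted p = 0.0157, edgeR).

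The level of PI3 relative to SLPI did not overlap between the groups. Per length, PI3 stood at 7.27%, 6.22% and 4.57% of the SLPI level in shNC replicates 1, 2 and 3, and at 38.2%, 37.7% and 36.2% in shNUF2 replicates 1, 2 and 3. The log2 ratio of PI3 to SLPI reads was 2.66 higher after knockdown, going from -4.19 ± 0.34 (SD, n = 3) to -1.53 ± 0.04 (SD, n = 3), with an exact two-sided permutation p = 0.10, the smallest possible here. A ratio taken within each library does not depend on how the libraries were scaled.

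**Figure D2:**
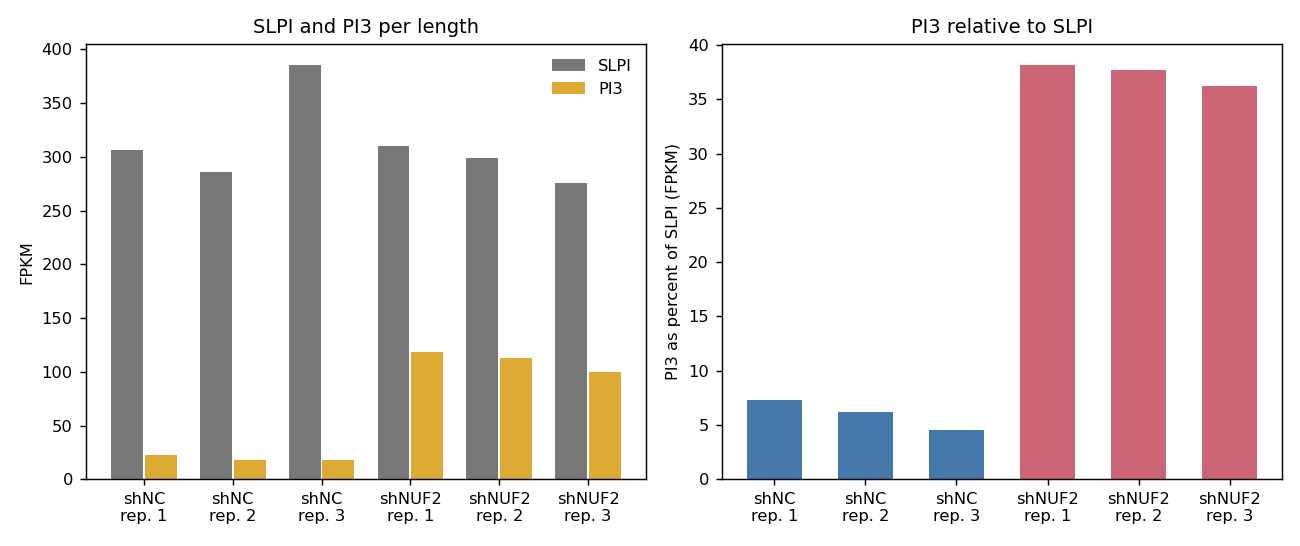
Left, FPKM of SLPI (grey) and PI3 (yellow) in each library; right, PI3 as a percentage of SLPI in each library (shNC blue, shNUF2 red), both from 0. SLPI stays between 276 and 386 FPKM while PI3 goes from between 17.6 and 22.2 FPKM with shNC to between 99.8 and 119 FPKM with shNUF2.

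SLPI and PI3 belong to a family of WAP-domain genes, of which 15 were listed and 14 lie on chromosome 20. In these cells 5 of the 15 were tested and 4 of these were called DEGs in the higher direction (PI3, WFDC1, WFDC3 and WFDC5, beside 9.41% of all genes tested), with a median log2 fold change of 2.29 over the 5, beside -0.01 over all genes tested. WFDC1 and WFDC5 passed the filter on low counts only through the shNUF2 libraries, where they are high, so this count and median are partly set by the filter. With at least 1 CPM required in every library 2 genes of the list were called higher, beside 6.46% of all genes then tested. WFDC3 had 71, 58 and 84 reads in the controls against 259, 274 and 314 after knockdown (log2 fold change 2.18, standard error 0.14, adjusted p = 2.25e-13, edgeR). WFDC1, whose product is known as prostate stromal protein ps20 and whose gene is not on chromosome 20, had 6, 3 and 7 reads against 24, 20 and 26 reads. WFDC5 had 1, 0 and 1 reads against 40, 32 and 15 reads, a ratio of summed rates of 49.6 with an exact 95% counting interval of 13.3 to 416. WFDC2, which encodes the ovarian cancer serum marker HE4, had 0 reads in every shNC library and at most 1 read with shNUF2. The genes nearest to PI3 and SLPI, SEMG1 and SEMG2, which lie between them and encode the semenogelins of seminal fluid, had at most 4 reads in any library. MATN4, on the other side of SLPI at 38.9 kb, had 8, 3 and 14 reads in the controls against 23, 18 and 14 after knockdown, and 1 of the 3 shNC libraries reached the count that the filter asks for, so no test is given.

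The neutrophil proteases that SLPI or PI3 bind were sparse. Of the 10 genes listed for proteases and their other inhibitors, 2 were tested, the protease gene PRTN3 and the inhibitor gene SERPINB1 (3245 to 4525 reads per library). Both were higher by adjusted p (33.9% of all genes tested), with a median log2 fold change of 0.91 that mixes the 2 kinds. As DEGs, 1 was higher with all libraries (9.41% of all genes tested), 3 with no filter (10.5%), and 2 without shNC replicate 1, 2 or 3 or without shNUF2 replicate 1 (9.20% to 10.2%). PRTN3, which encodes proteinase 3, had 41, 20 and 40 reads in the controls against 90, 61 and 83 after knockdown (log2 fold change 1.39, standard error 0.26, adjusted p = 3.35e-05, edgeR). ELANE, the neutrophil elastase gene, had between 1 and 12 reads per library and was not tested.

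The serum amyloid genes were both low, and in both every shNUF2 library stood above every shNC library after normalisation. SAA1 (ENSG00000173432, chromosome 11 from 18266260 to 18269977, plus strand) had 11, 24 and 16 reads in the controls against 23, 37 and 29 after knockdown. After normalisation the groups did not overlap, at 1.07 ± 0.383 CPM and 2.16 ± 0.604 CPM (SD, n = 3 each), although shNC replicate 2 (1.50 CPM) came close to shNUF2 replicate 1 (1.71 CPM). The log2 fold change of 1.00 (standard error 0.35, approximate 95% interval 0.31 to 1.68, adjusted p = 0.0144, edgeR) lay just under the DEG threshold, at 1.995-fold. It rested on few reads, since the adjusted p was 0.0627 without shNC replicate 1, 0.0518 without shNC replicate 3 and 0.105 without shNUF2 replicate 2 (edgeR), with log2 fold changes of 0.82, 0.89 and 0.76.

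SAA2 (ENSG00000134339, chromosome 11 from 18239223 to 18248668, minus strand) had 1, 0 and 1 reads in the controls against 8, 5 and 9 after knockdown, too few to be tested. Every shNUF2 library stood above every shNC library. The summed rate was 12.6 times higher with shNUF2, with an exact 95% interval of 3.09 to 110 that covers counting error only. Against a floor of 3 reads per shNC library it was 2.79-fold higher. The ratio of SAA1 to SAA2 could not be taken in shNC replicate 2, which had 0 SAA2 reads. Because the pair shares most of its coding sequence, as the lines above show, reads may have been moved between them, to which the sum of both is less exposed, or left uncounted, to which it is as exposed. That sum was 12, 24 and 17 reads in the controls against 31, 42 and 38 after knockdown, or 1.11 ± 0.346 CPM and 2.68 ± 0.485 CPM (SD, n = 3 each), with no overlap. SAA2 also overlaps the readthrough gene SAA2-SAA4 on the same strand along most of its length, which had 0 reads in every library, and reads in both may have been dropped, depending on counting settings that are not given in the sources used here. SAA4, the constitutive serum amyloid gene 2.42 kb from SAA2, had 0 reads in all libraries but shNUF2 replicate 3, which had 1. HPS5, 8.69 kb beyond SAA1, did not pass the test (log2 fold change -0.12, adjusted p = 0.0812, edgeR).

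The other genes listed as acute-phase plasma proteins, which are made largely by the liver, had at most 50 reads in any library. Of the 21 listed genes 2 were tested, and 1 of them, SAA1, was higher by adjusted p (33.9% of all genes tested). As DEGs, 0 were called higher with all libraries (9.41% of all genes tested), but 3, 5 and 3 without shNC replicate 1, 2 and 3, 3, 2 and 1 without shNUF2 replicate 1, 2 and 3, and 7 with no filter, and 1 was called lower without shNUF2 replicate 3 (4.48% of all genes then tested), with the genes that could be tested differing between these settings. Of all genes tested, between 9.20% and 10.2% were called higher with a library left out and 10.5% with no filter. CP, which encodes the copper carrier ceruloplasmin, had 50, 27 and 32 reads in the controls against 14, 16 and 27 after knockdown, overlapping by 1 pair of libraries with 27 reads each (log2 fold change -0.76, adjusted p = 0.0538, edgeR). The 3 fibrinogen chains, named after their values were seen, had few reads with shNC and some in every shNUF2 library. FGA was at 0 in all the controls against 12, 3 and 7 reads after knockdown, at least 2.79-fold higher against a floor of 3 reads per library. FGB was at 0 in all the controls against 16, 5 and 19 reads after knockdown, at least 5.07-fold higher against the same floor, and FGG had 0, 0 and 1 reads against 20, 7 and 24. CRP had 0 reads with shNC and at most 2 with shNUF2, and ALB had 0 throughout. The larger number of detected genes in the shNUF2 libraries moves with these low counts and with those of SAA2 and LTF, and its part in them was not tested.

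LCN2 (ENSG00000148346, chromosome 9 from 128149071 to 128153453, plus strand) had 28, 53 and 34 reads in the controls against 31, 33 and 23 after knockdown. The groups overlapped, with shNC replicate 2 the highest and shNUF2 replicate 3 the lowest. The normalised read count was 2.42 ± 0.775 CPM with shNC and 2.12 ± 0.527 CPM with shNUF2 (SD, n = 3 each), a log2 fold change of -0.20 that did not pass the test (approximate 95% interval -0.79 to 0.39, adjusted p = 0.565, edgeR). Changes to below 0.577-fold or above 1.31-fold lie outside that interval.

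LTF (ENSG00000012223, chromosome 3 from 46435645 to 46485234, minus strand), the other iron-withholding member, had 1, 0 and 0 reads in the controls against 4, 4 and 6 after knockdown, too few to be tested. Every shNUF2 library stood above every shNC library. The summed rate was 16.0 times higher with shNUF2, with an exact 95% counting interval of 2.43 to 676 that shows how little 15 reads in all can fix. Against a floor of 3 reads per shNC library it was 1.78-fold higher. CCRL2, 22.6 kb from LTF, had 49, 43 and 50 reads in the controls against 94, 107 and 136 after knockdown (log2 fold change 1.43, standard error 0.19, adjusted p = 3.46e-07, edgeR), while RTP3 and LRRC2 on the other side had at most 3 reads in any library.

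Among the 20 lipocalin and iron-handling genes, 10 were tested, 3 were higher and 2 lower by adjusted p (33.9% and 33.8% of all genes tested), and the median log2 fold change was -0.06. LCN15, another lipocalin, was the only DEG of that list and was lower, where 4.16% of all genes tested were DEGs lower and 9.41% higher. It had 118, 134 and 130 reads against 36, 48 and 62 reads (log2 fold change -1.20, standard error 0.19, adjusted p = 3.93e-06, edgeR). The genes beside LCN2 differed among themselves. SLC25A25 was higher (log2 fold change 0.55, adjusted p = 1.67e-05), PTGES2 and C9orf16 were lower (-0.20, adjusted p = 0.00229, and -0.27, adjusted p = 0.00467), and CIZ1 did not pass the test (-0.01, adjusted p = 0.805, all edgeR).

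The start of LCN2 is shown because it holds letters of the NF-kB and C/EBP motifs, factors named in the background, and of an AP-1 motif. RefSeq (GRCh38.p14) promoters were at hand for LCN2, PIGR and LTF, 3 of the 8 members, in 5 windows of which 3 belong to LTF, and the 250 bases before each start were searched on both strands. The stretch covers chr9:128149265-128149452 on the plus strand and ends at the base before the start in RefSeq, which lies downstream of the gene start in the deposited table, so that the stretch falls inside the gene as counted. Matches are in capitals.
LCN2 promoter: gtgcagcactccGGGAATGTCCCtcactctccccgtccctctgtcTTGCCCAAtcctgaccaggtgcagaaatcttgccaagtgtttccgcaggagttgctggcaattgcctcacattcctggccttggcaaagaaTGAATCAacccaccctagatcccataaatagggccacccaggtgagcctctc
From left to right the capitals are 2 overlapping matches, 1 on each strand, to an NF-kB motif (GGGANNNTC), 1 to a C/EBP motif (TTGCNNAA) and 1 to an AP-1 motif (TGANTCA). Such matches are common, since the NF-kB letters occurred in 13.3% of the 35116 windows of this length in the table, the C/EBP letters in 9.05%, the AP-1 letters in 6.57% and the STAT letters (TTCNNNGAA) in 6.57%. The window of PIGR held 1 match to the NF-kB motif, and 2 of the 3 LTF windows held 1 match each, to the C/EBP and the STAT motif. A match of letters is a description, and binding was not measured in these libraries.

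PIGR (ENSG00000162896, chromosome 1 from 206928522 to 206946466, minus strand) had 16, 10 and 23 reads in the controls against 29, 23 and 29 after knockdown. The raw counts met at 23 reads in shNC replicate 3 and shNUF2 replicate 2, and after normalisation the groups did not overlap. The normalised read count was 1.03 ± 0.365 CPM with shNC and 1.95 ± 0.192 CPM with shNUF2 (SD, n = 3 each), a 1.88-fold difference (log2 fold change 0.91, standard error 0.35, approximate 95% interval 0.23 to 1.60, adjusted p = 0.0238, edgeR). The adjusted p was 0.133 without shNC replicate 2, 0.0764 without shNUF2 replicate 1 and 0.0520 without shNUF2 replicate 3 (edgeR), with log2 fold changes of 0.65, 0.84 and 0.92. Of the shNC libraries 2 reached the count that the filter asks for, against all 3 shNUF2 libraries, so that PIGR was tested through the group where it is higher. With a gene length of 4372 bp, PIGR was below 0.5 FPKM in every library.

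PIGR lies among genes of immune function on chromosome 1. FCMR, 5.28 kb away, encodes a receptor for IgM, and had 36, 26 and 23 reads in the controls against 39, 48 and 49 after knockdown (log2 fold change 0.86, adjusted p = 0.00971, edgeR). IL24, a cytokine gene 24.4 kb away, had 1, 6 and 2 reads in the controls against 178, 176 and 185 after knockdown, with no overlap. It passed the filter on low counts only through the shNUF2 libraries, so its counts are given without the test. FCAMR, on the other side, had between 1 and 7 reads per library and was not tested. JCHAIN, which encodes the chain that joins the immunoglobulins PIGR carries, had 0 reads in every library.

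Among the 16 genes of polymeric immunoglobulin transport, mucins and trefoil factors, 9 were tested, 4 were higher and 3 lower by adjusted p (33.9% and 33.8% of all genes tested), with a median log2 fold change of -0.10. MUC5B, a gel-forming mucin, had 465, 446 and 596 reads in the controls against 98, 101 and 162 after knockdown (log2 fold change -1.87, standard error 0.13, adjusted p = 6.08e-13, edgeR). TFF1 and TFF2, trefoil peptides secreted with mucins, moved the other way, and TFF3 had 0 reads in every library. TFF1 had 26, 14 and 45 reads against 129, 132 and 147 (log2 fold change 2.45, standard error 0.24, adjusted p = 8.53e-10), and TFF2 had 15, 11 and 14 reads against 103, 57 and 117 (2.96, standard error 0.29, adjusted p = 1.40e-09, both edgeR). Neither trefoil gene was tested when at least 1 CPM was required in every library, and 0 genes of the list were then called higher (6.46% of all genes then tested).

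DEFB1 (ENSG00000164825, chromosome 8 from 6870592 to 6877936, minus strand), known as the defensin that epithelia express without induction, had 26, 9 and 22 reads in the controls against 11, 15 and 23 after knockdown. The groups overlapped throughout, and the lowest and the highest library were both shNC. The normalised read count was 1.22 ± 0.634 CPM with shNC and 1.17 ± 0.356 CPM with shNUF2 (SD, n = 3 each), a log2 fold change of -0.04 with a wide interval (approximate 95% interval -0.85 to 0.77, adjusted p = 0.936, edgeR). DEFB1 lies within a lincRNA gene of the opposite strand in GENCODE release 29, so that reads could be mixed if strand was not used in counting. Its neighbours in the table, DEFA6 and XKR5, had 0 reads and at most 14 reads per library.

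Of the 22 antimicrobial genes listed, 3 were tested and 2 of these, CCL20 and S100A9, were DEGs, both higher (9.41% of all genes tested), with a median log2 fold change of 2.06. S100A9 passed the filter on low counts only with the help of the shNUF2 libraries, where it is higher, so this count and median are partly set by the filter. Both fell below 1 CPM in at least 1 shNC library, so that 0 were called higher when at least 1 CPM was required in every library (6.46% of all genes then tested). With no filter 4 were called higher (10.5%). CCL20, a chemokine with defensin-like antibacterial activity, had 13, 23 and 13 reads in the controls against 538, 459 and 464 after knockdown (log2 fold change 5.08, standard error 0.17, adjusted p = 4.59e-19, edgeR). S100A9, a subunit of calprotectin, had 27, 14 and 7 reads against 46, 54 and 79, with 2 of the 3 shNC libraries at the filter's count, so no test is given. The inducible defensin genes DEFB4A, DEFB103A and DEFB104A had 0 assigned reads in every library. Reads that fit more than 1 gene may have been left uncounted, depending on settings that are not given, so these values do not settle whether the genes were silent.

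The regulators known to act on these genes were all expressed, and all 24 listed were tested. By adjusted p, 18 were higher (33.9% of all genes tested) and 2 lower (33.8%), and as DEGs 6 were higher (9.41%) and 1 lower (4.16%), with a median log2 fold change of 0.50 beside -0.01 over all genes tested. This list, like the others here, was chosen with earlier results of these data known. Its counts are therefore a description and not an independent result. NFKBIZ, which encodes the NF-kB cofactor on which LCN2 induction is known to depend, had 600, 612 and 648 reads in the controls against 2604, 2537 and 2722 after knockdown (log2 fold change 2.27, standard error 0.06, adjusted p = 3.19e-22, edgeR). The cytokine genes were higher too. IL1A had 363, 339 and 315 reads against 2992, 2454 and 2963 (log2 fold change 3.23, adjusted p = 2.74e-22), IL1B had 150, 125 and 123 against 1042, 825 and 989 (3.03, adjusted p = 9.25e-19), and IL6 had 57, 70 and 58 against 704, 749 and 724 (3.75, adjusted p = 4.29e-20, all edgeR). CEBPA, which encodes a C/EBP factor, was the DEG in the lower direction and is named for that after its values were seen, with 210, 284 and 306 reads in the controls against 75, 72 and 113 after knockdown (log2 fold change -1.43, standard error 0.14, adjusted p = 1.63e-09, edgeR). Whether these regulators bear on the members was not tested.

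**Figure D3:**
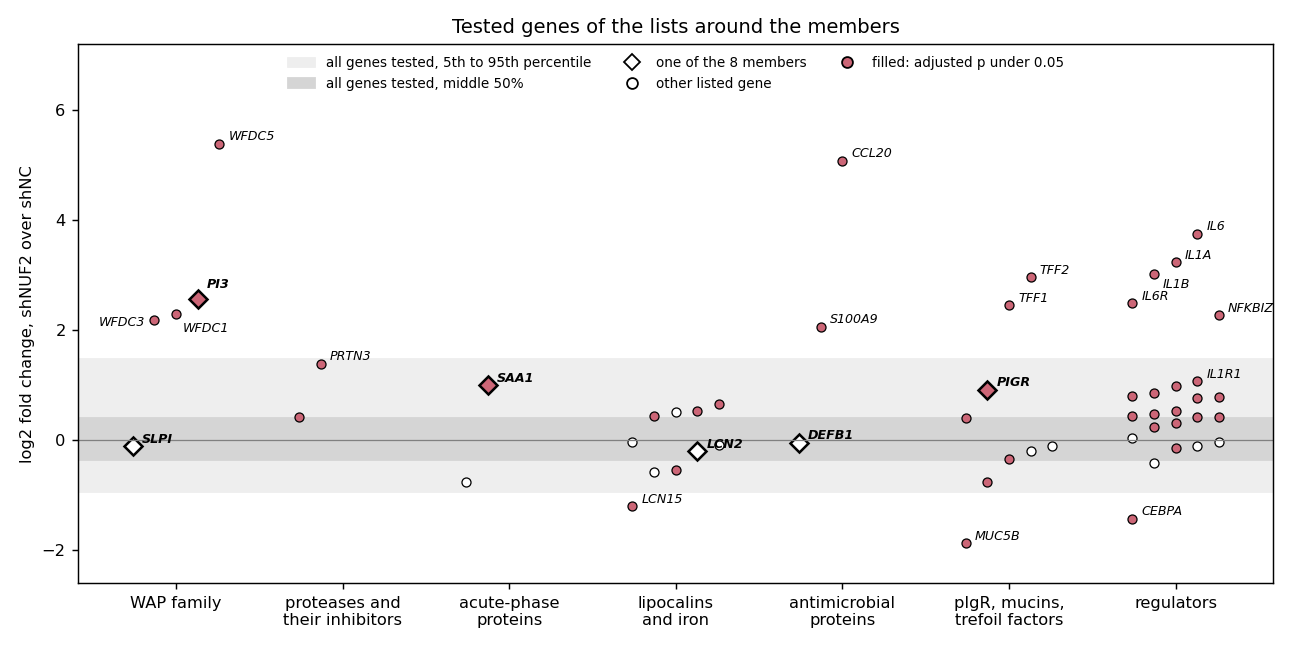
Log2 fold change of shNUF2 over shNC (vertical axis) for the tested genes of 7 gene lists (horizontal axis), with the 8 members' tested genes as diamonds, other genes as circles and genes with an adjusted p under 0.05 filled; grey bands hold the middle 50% and the 5th to 95th percentile of all genes tested. PI3 (2.56) and WFDC3 lie above both bands, as do WFDC1 and WFDC5, which passed the filter on low counts only through the shNUF2 libraries; SAA1 and PIGR lie inside the outer band and above the inner one, and SLPI, LCN2 and DEFB1 lie inside the inner band.

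The genes with profiles most like those of PI3, SAA1 and PIGR, the members with the smallest adjusted p, were found by the root mean square difference of log2 normalised CPM over the 6 libraries, each gene centred on its own mean. The 3 nearest to PI3 were IL6R (0.0863 log2 units), which encodes a receptor chain for interleukin 6, TINAGL1 (0.0930) and ERRFI1 (0.0930), a feedback inhibitor of the epidermal growth factor receptor. IL6R had 124, 109 and 109 reads in the controls against 594, 492 and 599 after knockdown, and ERRFI1 had 4728, 4262 and 4643 against 23452, 18795 and 22957. The 3 nearest to SAA1 were NFATC1 (0.149), TCTE3 (0.151) and CPED1 (0.176), and the 3 nearest to PIGR were GPR3 (0.0564), ZDHHC11B (0.127), whose reads may be shared with its close copy ZDHHC11, and CATSPERG (0.131). With 6 libraries in 2 groups, many genes of a like fold are close on this measure.

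Of the 6 tested members, PI3 passed the adjusted p threshold in all 15 of the other settings in which it was tested, whereas SAA1 and PIGR passed in 11 of 14 each. PIGR was tested through the group where it is higher, so its share is partly set by the filter. The log2 fold change of PI3 ranged from 2.46 to 2.67 over these settings.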

How the data were processed

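The authors deposited raw read counts for each gene and library, and FPKM values which equal the count over gene length and library total to within 2.71e-07. Cutadapt, HISAT and HTSeq and the build GRCh38.p13 are named in the submitters' processing notes; the annotation release and counting settings are not given in the sources used here. The test was that of edgeR 4.0.16, run in R 4.3.3 (filterByExpr, TMM, quasi-likelihood test, 6 libraries, no covariate), with Benjamini-Hochberg adjustment over 12874 genes and the standard error taken as the log2 fold change over the square root of F. Approximate 95% intervals are the value plus or minus 1.96 standard errors. CPM are counts scaled by the TMM-adjusted library total. Ratios of low counts have exact conditional (Clopper-Pearson) intervals. Exact permutation tests were two-sided.

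The members and gene lists were chosen with earlier results of these data known. Genes beyond the members were named by rule (up to 4 DEGs per list by adjusted p, the gene of highest FPKM in lists without one, 3 nearest profiles, neighbours within 50 kb, markers at 0 or highest). CEBPA, the fibrinogens, further cell-type markers and genes given with reads alone outside this rule were chosen after their values were seen. No set test was run on the lists. Alternatives were other scalings, filters, DESeq2 1.42.0, limma 3.58.1 on log2 FPKM, edgeR's TREAT, a replicate block and each library left out. The fits were tested on simulated counts. Python 3.11.15 with scipy 1.17.1 was used for the rest. The coding sequences of some members are not reported here.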

Additional observations from a re-analysis of the deposited data

How the results depend on the processing

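The count of members called DEGs, 1 with all libraries, was 2 (PI3 and SAA1) with DESeq2 and with median-ratio size factors, 3 (PI3, SAA2 and LTF) with no filter, and between 1 and 2 with each library left out. The count by adjusted p, 3, was 1 (PI3) when at least 1 CPM was required in every library, since SAA1 and PIGR were then not tested, and 6 with no filter, and with each library left out it lay between 2 and 3, the 3 without shNC replicate 2 being PI3, SAA1 and SLPI in place of PIGR. With no filter the added members were SAA2, LTF and SLPI, the last lower (log2 fold change -0.14, adjusted p = 0.00887, edgeR); the cause for SLPI was not tested. With each library left out, the log2 fold change lay between -0.20 and 0.0267 for SLPI, 0.76 and 1.32 for SAA1 and 0.65 and 1.16 for PIGR. For PIGR it was 0.22 with limma on log2(FPKM + 1), a pseudocount above its FPKM. The log2 ratio of PI3 to SLPI kept its direction in all settings run, and NUF2, PI3, LCN2 and DEFB1 kept their side of the adjusted p threshold in all settings that tested them. Over all genes, 1212 DEGs were higher and 536 lower, against 756 and 397 with at least 1 CPM in every library, 430 and 206 with limma on log2(FPKM + 1), and TREAT at an adjusted p under 0.05, a stricter rule, called 680 and 211. With no filter, 1770 of 16861 genes (10.5%) were DEGs higher and 634 (3.76%) lower, and by adjusted p 27.3% were higher and 27.6% lower.

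Libraries that share a replicate number showed little common deviation from their group means (correlations of 0.0398, 0.0222 and -0.0511), so the numbers do not pair the libraries. With the replicate number as a block, 2 members were DEGs, SAA1 (log2 fold change 1.02) joining PI3, and no call by adjusted p changed.

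SAA2 and LTF had too few reads for the main filter and are given as counts, and the intervals of LCN2, DEFB1, SAA1 and PIGR are wide.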
